A study of Homo sapiens with 8 samples.

Results

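Of the 60664 genes in a count table of A549 cells, 9 histone genes are described here: the linker histone genes H1-2 and H1-10, the core histone genes H2AC6, H2BC4, H2BC5, H2BC12 and H2BC21, and the H2A variant genes H2AZ1 and H2AX. They were chosen by symbol, each matched to its Ensembl identifier, and all 9 had counts and passed the expression filter that 15066 genes passed. A549 is a line from a human lung adenocarcinoma, and its RNA was sequenced in 8 libraries. Cells were left untreated, given IFN-γ, given the compound AX-0085 or given both, with 2 libraries of each kind. IFN-γ was applied at 20 ng/mL by the methods, and the labels state 20 ng without a volume. AX-0085 followed 24 h later at 0.5 μM, and the harvest came 24 h after that. Neither the labels nor the methods say whether the 2 libraries of a group came from separate cultures, so the p-values below measure the spread between libraries, which may be technical.

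Core histones form the spool of the nucleosome, and linker histones bind the DNA where it enters and leaves that spool. Most genes for them lie in clusters, are transcribed while DNA is copied, and give an mRNA that ends just after a short stem-loop in place of a poly(A) tail. The variant histones H2A.Z, from H2AZ1, and H2A.X, from H2AX, have genes of their own outside the clusters: H2A.Z is placed at promoters and enhancers by exchange, and H2A.X is phosphorylated around DNA breaks. H1-10 encodes a linker histone made outside S phase as well, and H1-2 one of the linker histones of the main cluster. Several clustered genes also give transcripts that run past the stem-loop and carry a poly(A) tail, above all in cells that have stopped dividing. The libraries were made with a kit that selects polyadenylated RNA, so transcripts that end at the stem-loop would be caught poorly, and the counts do not separate the 2 kinds of end.

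The stem-loop was searched for by its structure in the last exon of each coding transcript, as an arm of 6 bases that starts with GG, a loop of 4 bases and the reverse complement of the arm. It was present in 7 of the 9 genes, 31 to 60 bases after the last base of the annotated coding sequence. No match was found in H1-10 and H2AZ1. The 7 sites are shown because they mark the end of the transcript that has no poly(A) tail; capitals mark the arm, the loop and the second arm, read 5′ to 3′ on the strand of the gene (GRCh38).
H1-2: cccaaaaGGCTCTTTTCAGAGCCacca
H2AC6: acccaaaGGCTCTTTTCAGAGCCccccta
H2BC4: ccccaaaGGCTCTTTTAAGAGCCaccca
H2BC5: tcccaaaGGCTCTTTTAAGAGCCacgca
H2BC12: ccccaaaGGCTCTTTTAAGAGCCactta
H2BC21: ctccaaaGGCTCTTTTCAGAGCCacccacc
H2AX: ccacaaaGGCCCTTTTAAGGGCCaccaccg
The arm was the same in 6 of the 7 genes, and the stem of H2AX differed from it. In the GENCODE 44 annotation, the transcripts of H1-2 and H2BC12 end 4 and 5 bases past the stem, so that annotation holds no long form of either. The longest annotated transcript ran 1729 bases past the stem in H2BC21 and 1024 bases in H2AX, and in H2AC6, H2BC4 and H2BC5 a spliced transcript ended 14432, 37155 and 12747 bases further along the genome.

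All 9 genes had a promoter sequence in RefSeq (GRCh38.p14). Windows of 250 bases before the start site were searched on both strands for 4 motifs. CCAAT is the box bound by the factor NF-Y in many promoters of the cell cycle. TATAAA stands for the box near the start site where the transcription machinery assembles. ATTTGCA is the core of the octamer that is known from H2B promoters and bound by Oct-1. AAACACA is the H1 box, known from the promoters of linker histone genes. H2BC4 and H2AC6 face away from each other with start sites 246 bases apart, so 1 stretch serves as promoter of both, and it is shown whole, read on the plus strand from the start of H2BC4 on the left to the start of H2AC6 on the right (chr6:26123927-26124171). The other sequences are the 160 bases before the start site of the remaining 7 genes, on the strand of the gene, and in all of them capitals mark the motifs.
H2BC4 to H2AC6: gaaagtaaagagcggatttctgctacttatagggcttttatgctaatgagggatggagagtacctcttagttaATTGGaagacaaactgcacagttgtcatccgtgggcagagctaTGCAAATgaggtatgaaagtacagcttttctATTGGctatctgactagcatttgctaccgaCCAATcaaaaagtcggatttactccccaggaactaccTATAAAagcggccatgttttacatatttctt
H1-2: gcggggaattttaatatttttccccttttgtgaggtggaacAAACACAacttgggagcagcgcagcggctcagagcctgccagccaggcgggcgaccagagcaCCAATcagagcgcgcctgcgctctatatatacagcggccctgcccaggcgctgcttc
H1-10: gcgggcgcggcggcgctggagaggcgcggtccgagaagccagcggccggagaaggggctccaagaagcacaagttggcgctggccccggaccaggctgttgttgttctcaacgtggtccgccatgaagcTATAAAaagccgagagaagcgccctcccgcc
H2BC5: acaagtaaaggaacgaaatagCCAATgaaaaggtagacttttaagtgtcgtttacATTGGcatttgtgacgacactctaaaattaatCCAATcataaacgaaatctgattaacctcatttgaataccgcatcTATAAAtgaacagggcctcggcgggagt
H2BC12: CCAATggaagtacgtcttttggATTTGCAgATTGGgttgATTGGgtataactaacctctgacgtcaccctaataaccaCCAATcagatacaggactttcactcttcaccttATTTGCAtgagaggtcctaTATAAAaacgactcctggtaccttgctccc
H2BC21: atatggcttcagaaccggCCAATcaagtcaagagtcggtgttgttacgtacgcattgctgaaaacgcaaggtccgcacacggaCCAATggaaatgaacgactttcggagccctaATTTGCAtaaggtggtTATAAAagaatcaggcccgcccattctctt
H2AZ1: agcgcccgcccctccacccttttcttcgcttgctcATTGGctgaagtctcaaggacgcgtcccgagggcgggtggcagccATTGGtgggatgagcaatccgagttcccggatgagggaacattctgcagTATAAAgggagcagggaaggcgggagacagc
H2AX: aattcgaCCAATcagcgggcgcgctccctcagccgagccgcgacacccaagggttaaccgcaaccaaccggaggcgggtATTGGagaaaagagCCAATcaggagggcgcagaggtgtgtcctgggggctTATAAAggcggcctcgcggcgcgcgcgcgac
CCAAT was found in 8 of the 9 windows, all but that of H1-10, and in 32.0% of the 35116 human promoter windows of the same length. TATAAA was found in 8 of the 9 and in 10.7% of all windows; the match in the H2BC4 window is the TATA box of H2AC6 read on the other strand, and a pair of the matches in H2BC12 overlap each other. ATTTGCA was present in H2AC6, H2BC4, H2BC12 and H2BC21, where the match of H2AC6 and H2BC4 is 1 shared site, and in 3.67% of all windows. AAACACA was present in H1-2 alone among the 9 and in 4.82% of all windows. These are matches of letters, and no binding was measured.

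**Figure D1:**
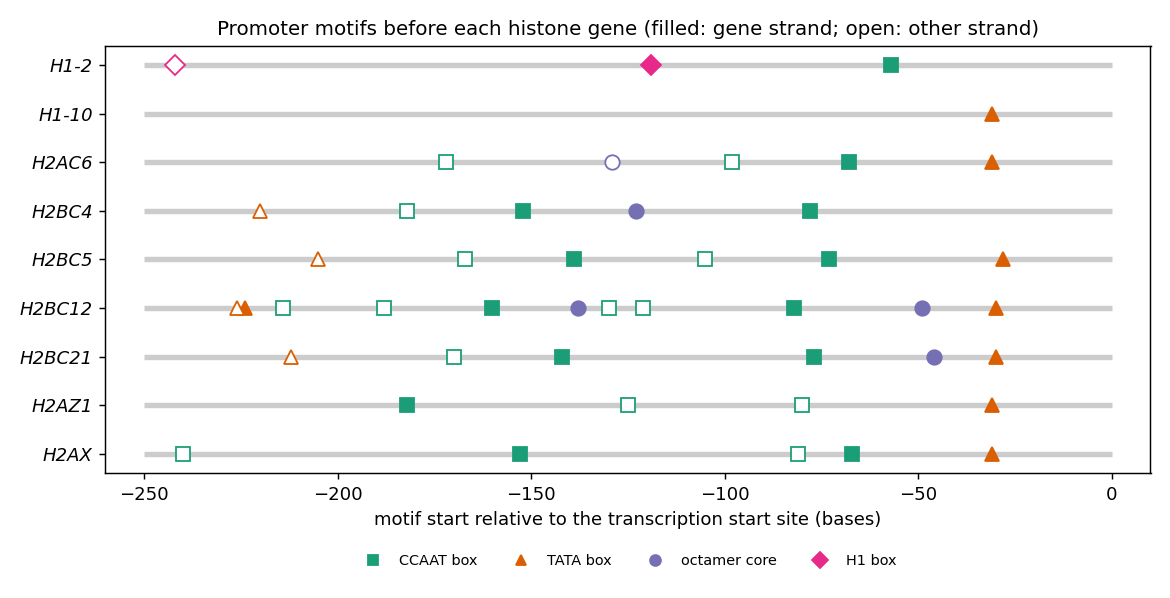
Positions of the 4 motifs in the 250 bases before the start site of each gene, with the distance from the start site in bases on the x axis and 1 line per gene; filled marks are on the strand of the gene and open marks on the other strand. H2BC12 holds the most matches, with 6 of CCAAT, 3 of TATAAA and 2 of the octamer core, and H1-10 holds a single TATAAA.

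The libraries held 20672828 to 29978251 counts, and the 9 genes together took 0.0323% to 0.0669% of them. A level of 3 counts corresponds to 0.100 to 0.145 CPM, which covers counting error only. The epithelial keratins KRT8 (1510 to 4410 CPM) and KRT18 (926 to 2380 CPM) were high in all 8 libraries, while CD3E of T cells had 0 counts in all 8. EPCAM, another epithelial marker, was low, at 0.281 to 8.61 CPM. Mitochondrial genes took a share of the counts that moved with the groups, at 3.55% and 2.72% in untreated cells, 4.12% and 5.73% under AX-0085, 1.71% and 1.82% under IFN-γ, and 2.87% and 3.43% under both, and its part in the results below was not tested. In bulk RNA, fewer cells that express a gene and less RNA of that gene per cell cannot be told apart.

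Levels are given as CPM, the counts scaled to library size after edgeR's TMM scaling. To set genes beside each other the CPM was divided by the exon length in kb. The order is one of captured RNA, since transcripts that end at the stem-loop would be caught poorly. For H1-2 and H2BC12 the annotated length holds no long form, and a longer length would lower their values per kb. Per kb of exon, H2AZ1 stood first in untreated cells, at 172 ± 6.69 CPM per kb (SD, n = 2), followed by H2AX at 93.3 ± 20.7, H1-10 at 39.5 ± 10.5 and H2BC12 at 30.5 ± 4.88. H1-2 at 12.9 ± 0.226, H2AC6 at 6.69 ± 0.413, H2BC5 at 6.37 ± 0.214, H2BC21 at 1.36 ± 0.369 and H2BC4 at 0.485 ± 0.0531 CPM per kb came next. The neighbours H1-10 and H2BC12 overlapped between libraries, as did H2AC6 and H2BC5, and the last pair changed places when the length of the longest transcript was used. H2AZ1 remained first in all 4 groups, at 77.6 CPM per kb with AX-0085, 104 under IFN-γ and 82.3 under both, and H2BC4 remained last in all 4. H2BC12, below H1-10 in untreated cells, stood second with AX-0085, at 40.4 CPM per kb, and with both agents, at 60.7 CPM per kb.

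**Figure D2:**
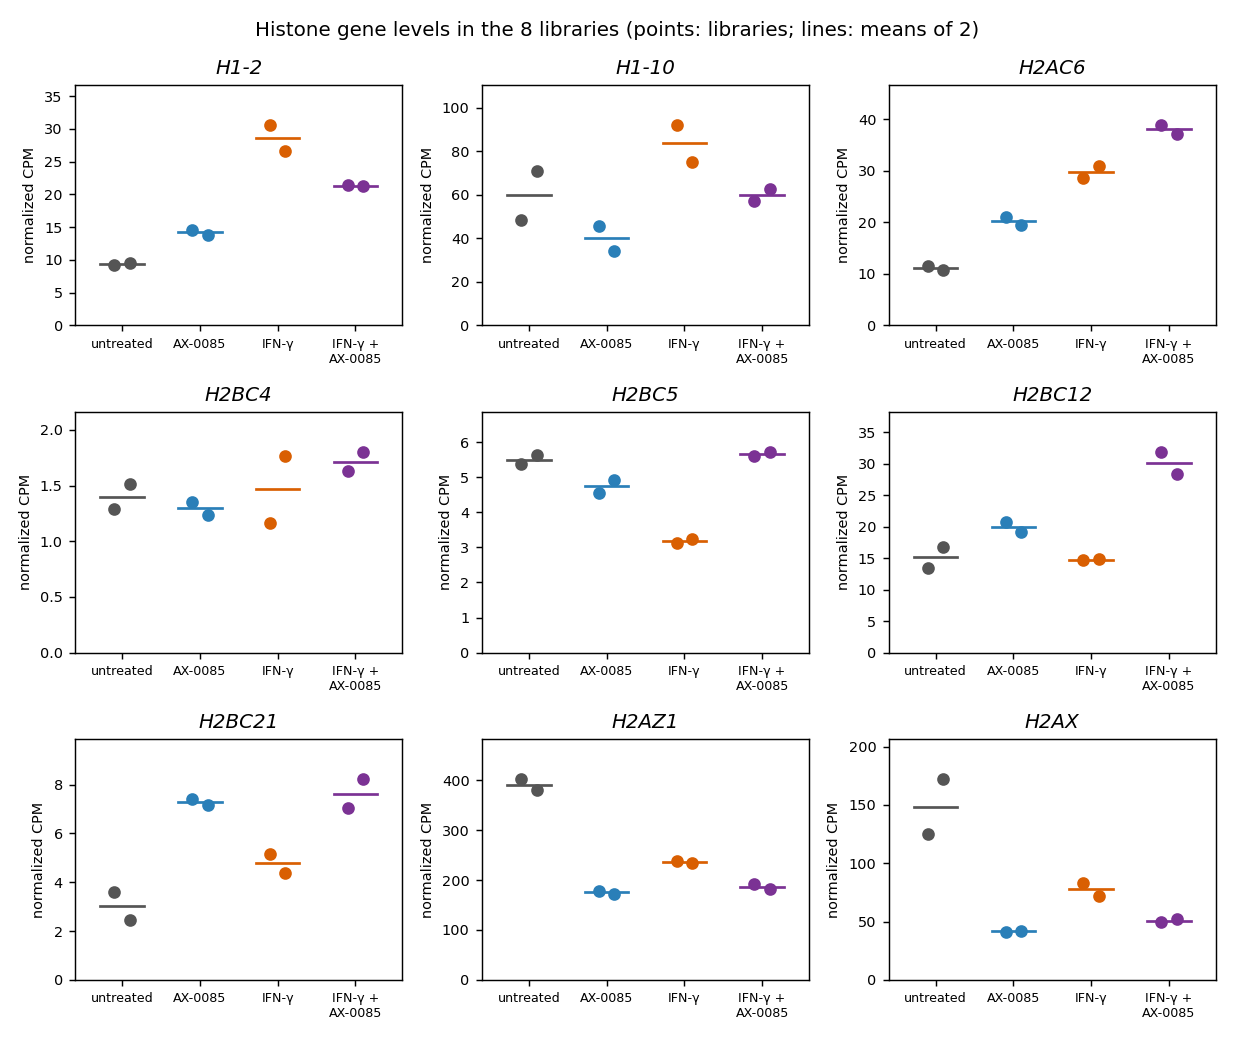
Normalized CPM of each of the 9 histone genes, 1 panel per gene with its own axis from 0; points are libraries and lines the means of 2. The levels of H2AZ1 and H2AX are highest in the untreated cells, those of H1-2 and H1-10 under IFN-γ, and those of H2AC6 and H2BC12 under both agents.

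A gene is said to have risen or fallen where the Benjamini-Hochberg-adjusted p of edgeR's quasi-likelihood test was under 0.05, and is called where it also changed by more than 2-fold. With IFN-γ against untreated cells, 2 of the 9 genes were called, both higher, where 27.5% of all genes tested were called, 10.3% higher and 17.2% lower. With AX-0085 against untreated cells 3 were called, 1 higher and 2 lower (12% of all genes called, 6.41% higher and 5.62% lower). Addition of AX-0085 to IFN-γ, against IFN-γ, gave 1 call, a higher one (24.8% of all genes called, 16.5% higher and 8.28% lower). Both agents against untreated cells gave 6 calls, 4 higher and 2 lower (14.7% called, 7.51% higher and 7.23% lower). Both agents against AX-0085 gave 0 calls by edgeR and 0 by DESeq2, while 4 of the 9 genes passed the adjusted p alone and 5 had an unadjusted p under 0.05 (3.52% called, 1.79% higher and 1.73% lower, and 34.7% past the adjusted p). The interaction, the difference between the change with AX-0085 in cells with IFN-γ and in cells without it, was called for 3 of the 9 genes, 2 above and 1 below 0 (18.6% called, 12.1% and 6.46%).

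At the adjusted p alone, 7 of the 9 genes passed with IFN-γ, 7 with AX-0085, 8 with AX-0085 added to IFN-γ, 6 with both against untreated cells and 6 in the interaction, beside 68.1%, 53.3%, 66.5%, 56.9% and 50.3% of all genes. The libraries of the groups compared did not overlap for 7 of the 9 genes with IFN-γ, 8 with AX-0085, 8 with AX-0085 added to IFN-γ, 8 for both agents against AX-0085 and 7 for both against untreated cells, beside 81.1%, 76.2%, 82.7%, 70.7% and 79.1% of all genes. These comparisons share libraries, so a gene's changes are given side by side and not as separate evidence.

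**Figure D3:**
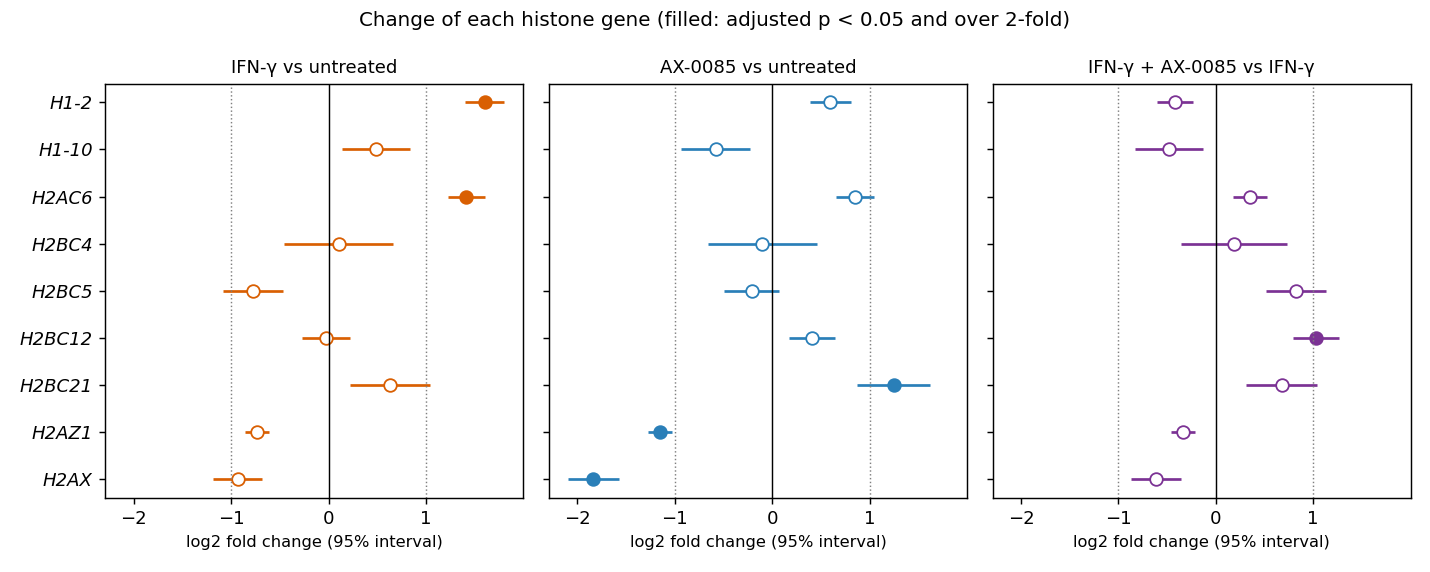
Log2 fold change of each histone gene with its 95% interval in the 3 main comparisons; filled points passed the adjusted p of 0.05 and changed by more than 2-fold, and dotted lines mark that change. H1-2 and H2AC6 are filled for IFN-γ, H2BC21, H2AZ1 and H2AX for AX-0085, and H2BC12 for AX-0085 added to IFN-γ.

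Of the linker genes, H1-2 was called higher with IFN-γ. H1-10 rose less with IFN-γ, and its changes rested on single libraries. H1-2 (chr6:26055740-26056470, minus strand, a single exon in the main cluster) had 9.29 and 9.52 CPM in the 2 untreated libraries, 14.6 and 13.8 under AX-0085, 30.6 and 26.7 under IFN-γ, and 21.4 and 21.3 under both. The 4 groups did not overlap, with untreated cells lowest and IFN-γ highest. It rose 3.04-fold with IFN-γ (log2 fold change 1.60 ± 0.0931 SE, edgeR adjusted p = 5.79e-09). AX-0085 moved H1-2 in opposite directions by context: it rose by 0.59 ± 0.0973 on the log2 scale in cells without IFN-γ (edgeR adjusted p = 0.000197) and fell by 0.42 ± 0.0857 in cells with it (edgeR adjusted p = 0.000804). The difference between those changes, the interaction, was -1.01 ± 0.13 on the log2 scale (edgeR adjusted p = 3.04e-05). With both agents H1-2 stood above untreated cells by 1.19 on the log2 scale (edgeR adjusted p = 2.43e-07).

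H1-10 (chr3:129314771-129316286, minus strand, a single exon) had 48.6 and 71 CPM in untreated cells, 45.7 and 34.3 under AX-0085, 92 and 75.2 under IFN-γ, and 56.9 and 62.8 under both. In proportion to their level, the 2 libraries of a group lay further apart than those of H1-2, and the untreated range held both values of the combined treatment. H1-10 rose by 0.48 ± 0.161 on the log2 scale with IFN-γ (edgeR adjusted p = 0.0167), fell by 0.58 ± 0.164 under AX-0085 (edgeR adjusted p = 0.00949) and fell by 0.48 ± 0.161 on addition of AX-0085 to IFN-γ (edgeR adjusted p = 0.0179). None of these 3 changes passed the adjusted p in DESeq2 (0.083, 0.0637 and 0.0912), and each lost it without some single library. With IFN-γ the change was 0.28 without the first untreated library, 0.35 without the first IFN-γ library and 0.78 without the second untreated one. With AX-0085 it was -0.29 without the second untreated library, -0.38 without the second AX-0085 library and -0.82 without the first untreated one. On addition of AX-0085 to IFN-γ it was -0.34 without the first IFN-γ library and -0.41 without the first library of both agents. With both agents the log2 difference of H1-10 from untreated cells was 0.00, with a 95% interval from -0.35 to 0.35. The interaction was 0.10 (edgeR adjusted p = 0.747). An antisense gene, H1-10-AS1, covers 22.8% of the exon bases of H1-10; it held 6 to 36 counts a library against 911 to 1871 for H1-10, and the strand setting of the counting is not given in the sources used here.

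The 5 clustered core genes did not move as a block. H2AC6, an H2A gene (chr6:26124145-26139116, plus strand), had 11.6 and 10.7 CPM in untreated cells, 21 and 19.4 under AX-0085, 28.6 and 31 under IFN-γ, and 38.9 and 37.2 under both. Its groups formed a ladder without overlap, from untreated cells to both agents. H2AC6 rose 2.67-fold with IFN-γ (log2 fold change 1.42 ± 0.0887, edgeR adjusted p = 1.21e-08) and by 0.85 ± 0.0901 on the log2 scale with AX-0085 (edgeR adjusted p = 4.42e-06). Addition of AX-0085 to IFN-γ raised it by a further 0.35 ± 0.0802 (edgeR adjusted p = 0.00169), and with both agents it stood 3.41-fold above untreated cells (edgeR adjusted p = 3.00e-09). The interaction of -0.50 on the log2 scale passed the adjusted p (0.00384, edgeR) but not 2-fold.

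H2BC4, the H2B gene that shares its promoter with H2AC6 (chr6:26086317-26123926, minus strand), stayed near the lower end of what was tested. It had 1.29 and 1.51 CPM in untreated cells, 1.35 and 1.24 under AX-0085, 1.16 and 1.77 under IFN-γ, and 1.63 and 1.8 under both, from 22 to 51 counts a library. Untreated cells overlapped with AX-0085 and with IFN-γ. The log2 change with IFN-γ was 0.11, with a 95% interval from -0.45 to 0.67 (edgeR adjusted p = 0.735), that with AX-0085 was -0.10, with an interval from -0.66 to 0.46 (edgeR adjusted p = 0.767), and that of AX-0085 added to IFN-γ was 0.19, with an interval from -0.36 to 0.73 (edgeR adjusted p = 0.529). A change of 1.42, that of H2AC6 under IFN-γ, lies outside the first of these intervals, although the 2 genes were not tested against each other. Other genes on the opposite strand cover 30.9% of its exon bases. Among them is HFE, which held 364 to 1686 counts a library, far more than H2BC4. HFE was called lower with IFN-γ (log2 fold change -1.06, edgeR) and higher on addition of AX-0085 to IFN-γ (1.47). The strand setting of the counting is not given, so a share of HFE reads in the counts of H2BC4 was not tested.

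H2BC5 (chr6:26158122-26171349, plus strand) was the 1 clustered core gene that fell with IFN-γ. It had 5.36 and 5.62 CPM in untreated cells, 4.54 and 4.93 under AX-0085, 3.11 and 3.25 under IFN-γ, and 5.59 and 5.71 under both. The IFN-γ libraries lay below all others, and those with both agents lay within or just above the untreated range. H2BC5 fell by 0.78 ± 0.142 on the log2 scale with IFN-γ (edgeR adjusted p = 0.00028) and rose by 0.82 ± 0.142 when AX-0085 was added (edgeR adjusted p = 0.000197). In cells without IFN-γ its log2 change with AX-0085 was -0.21, with a 95% interval from -0.49 to 0.07 (edgeR adjusted p = 0.189). The interaction was 1.03 ± 0.192 (edgeR adjusted p = 0.000626), and the log2 difference of both agents from untreated cells was 0.04 (edgeR adjusted p = 0.792).

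H2BC12 (chr6:27146361-27146855, minus strand, a single exon) had 13.4 and 16.8 CPM in untreated cells, 20.8 and 19.2 under AX-0085, 14.7 and 14.8 under IFN-γ, and 31.8 and 28.3 under both. The IFN-γ libraries lay between the 2 untreated libraries, and those with both agents stood above all others. With IFN-γ its log2 change was -0.03, with a 95% interval from -0.27 to 0.22 (edgeR adjusted p = 0.848), and its sign turned with DESeq2's size factors. H2BC12 rose 2.04-fold on addition of AX-0085 to IFN-γ (log2 fold change 1.03 ± 0.108, edgeR adjusted p = 2.17e-06), and by 0.41 ± 0.109 on the log2 scale with AX-0085 alone (edgeR adjusted p = 0.0063), which did not pass without the first untreated library (0.26) or the first AX-0085 library (0.35). The first of these lay at the 2-fold limit and was not called at 0.99 with DESeq2's size factors in edgeR, at 0.98 in DESeq2, and at 0.94 without the first library of both agents. Of the windows of a read's length in its exon, 22.0% also occur in another gene, among them ENSG00000274559, which had 20 to 66 counts and rose by 1.01 in the same comparison (edgeR adjusted p = 0.00355). Reads from those windows could be assigned to either gene or counted in both. The setting for reads with several matches is not given in the sources used here, and the copies H3C14 and H3C15 had equal counts in all 8 libraries. Whether the changes of H2BC12 and ENSG00000274559 rest in part on the same reads was not tested.

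H2BC21, an H2B gene of the cluster on chromosome 1 (chr1:149884459-149886682, minus strand), had 3.6 and 2.44 CPM in untreated cells, 7.4 and 7.18 under AX-0085, 5.17 and 4.38 under IFN-γ, and 7.03 and 8.22 under both. Both groups with AX-0085 lay above both groups without it. H2BC21 rose 2.38-fold with AX-0085 (log2 fold change 1.25 ± 0.173, edgeR adjusted p = 4.91e-05), by 0.63 ± 0.189 on the log2 scale with IFN-γ (edgeR adjusted p = 0.0097) and by 0.68 ± 0.167 on addition of AX-0085 to IFN-γ (edgeR adjusted p = 0.00299). The change of H2BC21 with IFN-γ was 0.40 without the second untreated library and 0.52 without the first IFN-γ library, and passed in neither. Both agents against AX-0085 alone gave a log2 difference of 0.06 (edgeR adjusted p = 0.815), with overlapping libraries. Windows shared with other genes made up 2.50% of its exon.

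The 2 H2A variant genes were highest in untreated cells and fell with each agent. H2AZ1 (chr4:99948086-99950355, minus strand, 5 exons) had 402 and 380 CPM in untreated cells, 179 and 173 under AX-0085, 238 and 234 under IFN-γ, and 192 and 182 under both. The untreated libraries stood far above the rest, and the AX-0085 group was the lowest. H2AZ1 fell by 1.15 ± 0.0577 on the log2 scale with AX-0085 (edgeR adjusted p = 6.09e-09) and by 0.73 ± 0.0572 under IFN-γ (edgeR adjusted p = 1.04e-07). Addition of AX-0085 to IFN-γ lowered it by a further 0.33 on the log2 scale (edgeR adjusted p = 0.00019). The interaction of 0.81 ± 0.0811 passed the adjusted p but not 2-fold (edgeR adjusted p = 3.41e-06), and both agents differed from AX-0085 alone by 0.09 on the log2 scale (edgeR adjusted p = 0.279).

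H2AX (chr11:119093874-119095465, minus strand, a single exon) had 125 and 172 CPM in untreated cells, 41.4 and 41.8 under AX-0085, 83.4 and 72.3 under IFN-γ, and 49.8 and 51.9 under both. Its groups did not overlap and stood in the same order as those of H2AZ1. H2AX fell by 1.83 ± 0.121 on the log2 scale with AX-0085 (edgeR adjusted p = 6.33e-08), the largest change of any of the 9 genes in this comparison. With IFN-γ it fell by 0.93 ± 0.116 (edgeR adjusted p = 9.69e-06), short of 2-fold, and it would be called without the first untreated library (-1.10) or without the first IFN-γ library (-1.02). Addition of AX-0085 to IFN-γ lowered it by 0.61 ± 0.12 (edgeR adjusted p = 0.000556). The interaction was 1.22 ± 0.169 on the log2 scale (edgeR adjusted p = 5.73e-05), so that the fall with AX-0085 was smaller in cells with IFN-γ.

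Against untreated cells, both agents together left H1-2, H2AC6, H2BC12 and H2BC21 called higher and H2AZ1 and H2AX called lower. The log2 differences of the last 4 were 1.00 ± 0.105, 1.30 ± 0.172, -1.06 ± 0.0575 and -1.55 ± 0.119 (edgeR adjusted p = 3.47e-06, 2.71e-05, 7.25e-09 and 1.89e-07). H2BC12 and H2AZ1 stood at the 2-fold limit: without the first untreated library they were not called, at 0.88 and -0.98, nor was H2BC12 without the first library of both agents, at 0.95. Against AX-0085 alone, IFN-γ with AX-0085 raised H1-2 by 0.59, H1-10 by 0.58, H2AC6 by 0.91 and H2BC12 by 0.59 on the log2 scale (edgeR adjusted p = 0.000289, 0.0153, 4.90e-06 and 0.000767), and H1-10 did not pass in DESeq2 (adjusted p = 0.0762) nor without the second AX-0085 library (0.39) or the second library of both agents (0.51). In the interaction H1-2, H2BC5 and H2AX were called, as given above.

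Summed over each class, the linker genes H1-2 and H1-10 came to 57.9 and 80.6 CPM in untreated cells, 60.3 and 48.1 under AX-0085, 123 and 102 under IFN-γ, and 78.3 and 84.1 under both. The 7 core genes came to 562 and 589 CPM in untreated cells, 276 and 267 under AX-0085, 374 and 361 under IFN-γ, and 327 and 315 under both. The ratio of linker to core was 0.12 ± 0.024 (SD, n = 2) in untreated cells, 0.20 ± 0.0276 under AX-0085, 0.305 ± 0.0325 under IFN-γ and 0.254 ± 0.0191 under both. Untreated cells lay below all treated groups without overlap, and the IFN-γ libraries (0.328 and 0.282) lay above those with both agents (0.24 and 0.267). No test of the ratio is given, because it is a sum over genes that were chosen with results of these data known.

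The core sum was mostly H2AZ1, and without it the ratio was 0.374 in untreated cells, 0.569 under AX-0085, 0.85 under IFN-γ and 0.606 under both. With CPM per kb in place of CPM it was 0.167, 0.276, 0.456 and 0.33 in the same groups. The order of the groups depended on the variant genes, since H2AX stays in the core in each of these versions. Against the 5 clustered core genes alone, a version chosen after seeing the data, the linker genes stood at 1.64 and 2.17 in untreated cells, 1.09 and 0.925 under AX-0085, 2.33 and 1.85 under IFN-γ, and 0.922 and 1.04 under both. In that version untreated cells lay above both groups with AX-0085 and overlapped with IFN-γ, the opposite of their place in the ratio to all 7 core genes.

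Within the core, the variant genes summed to less in every treated group, at 527 and 552 CPM for H2AZ1 with H2AX in untreated cells, 221 and 215 under AX-0085, 321 and 306 under IFN-γ, and 242 and 233 under both. The 5 clustered core genes summed to 36.2 CPM on average in untreated cells, 53.5 under AX-0085, 54 under IFN-γ and 83.1 under both. Under IFN-γ the higher sum was that of H2AC6: the 4 H2B genes together had 23.6 and 26.4 CPM in untreated cells and 24.1 and 24.2 under IFN-γ, beside 34.1 and 32.5 under AX-0085 and 46 and 44.1 under both. The 2 variant genes held 85% and 82.4% of the counts of the 9 genes in the untreated libraries and 59.7% and 58.5% in those with both agents.

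**Figure D4:**
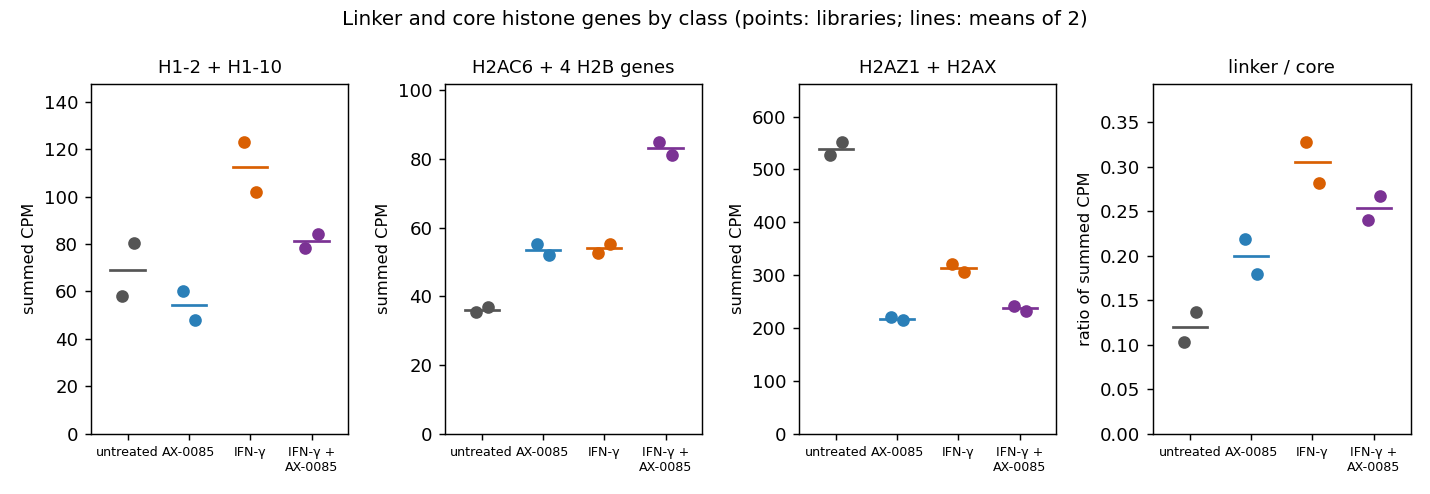
Summed CPM of the 2 linker genes, of the 5 clustered core genes and of the 2 H2A variant genes, and the ratio of linker to core, by group; points are libraries and lines the means of 2. The clustered core sum is highest with both agents, the variant sum is highest in untreated cells, and the ratio to all 7 core genes is lowest in untreated cells.

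Other genes of histone supply were counted from lists chosen with earlier results of these data known. Of 63 other replication-dependent histone genes, 61 were in the table, 10 of these had 0 counts in all 8 libraries and 28 were tested. With IFN-γ edgeR called 6 of the 28 higher and 0 lower, beside 10.3% and 17.2% of all genes tested. At an unadjusted edgeR p under 0.05, 11 were higher and 3 lower. Their median log2 change was 0.35, beside -0.06 over all genes tested and 0.11 over the 9 genes. H4C14, an H4 gene, went from 10.6 and 11.1 CPM in untreated cells to 55.3 and 51.1 under IFN-γ (log2 fold change 2.29, edgeR). Its near-copy H4C15 changed by 2.28, with counts within 4.12% of those of H4C14, so the 2 cannot be told apart, and both are among the 6 calls. Also among the 28, H3C14 and H3C15 had equal counts in all 8 libraries, and the counts of H4C11 and H4C12 lay within 8.11%. The calls and medians of the 28 count each such pair as 2 genes. With AX-0085 3 of the 28 were called higher and 2 lower, beside 6.41% and 5.62% of all genes. The median was 0.29, beside 0.01 over all genes, and H2AC25, a further H2A gene, rose by 1.28 on the log2 scale. On addition of AX-0085 to IFN-γ, 1 was called higher, H2AC25 at 1.09, and 1 lower (median 0.02, beside 0.03). Of all genes, 16.5% were called higher and 8.28% lower there.

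Of the 8 other replication-independent histone genes, 1 was called lower with AX-0085, beside 5.62% of all genes. This was CENPA, the H3 variant of centromeres, at -1.30 on the log2 scale (edgeR). H2AZ2, the second H2A.Z gene, had 251 and 249 CPM in untreated cells, 179 and 180 under AX-0085, 155 and 151 under IFN-γ and 141 and 142 under both, so that unlike H2AZ1 it was lower with IFN-γ than with AX-0085.

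Genes that go with DNA replication stood lower in all treated groups. Of 35 tested S phase genes, 27 were called lower with IFN-γ, 24 with AX-0085 and 30 with both agents against untreated cells, beside 17.2%, 5.62% and 7.23% of all genes, and 0 were called higher by edgeR in each, also at an unadjusted p under 0.05. On addition of AX-0085 to IFN-γ 0 of them were called, beside 24.8% of all genes. At the unadjusted p, 9 passed as higher and 14 as lower. The medians with IFN-γ, with AX-0085 and on that addition were -1.41, -1.27 and -0.07 on the log2 scale. In the interaction all 35 lay above 0, with a median of 1.02, and 21 were called, beside 12.1% of all genes called above 0. TK1 and POLD1 fell by 2.61 and 2.57 under IFN-γ, and MCM10 and RRM2 by 2.01 and 1.98 under AX-0085. Of 23 tested histone chaperones, 5 were called lower with IFN-γ, where 17.2% of all genes were, and 6 with AX-0085, where 5.62% were; the share of the 23 was thus near that of all genes with IFN-γ. On addition of AX-0085 to IFN-γ edgeR called 0 of them, with 5 higher and 10 lower at an unadjusted p under 0.05. ASF1B, which hands H3 and H4 to the replication fork, went from 67.3 and 70.9 CPM in untreated cells to 15.7 in both IFN-γ libraries and to 19.3 and 20.4 under AX-0085. TONSL, a reader of new histones, fell by 1.88 with IFN-γ, and HJURP, the chaperone of CENPA, by 1.54 with AX-0085. H2AZ1 and H2AX fell in the same comparisons, and whether the number of cells in S phase plays a part in the values of the 9 genes was not tested.

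Of 15 genes listed here under histone mRNA processing, all tested, 2 were called higher with IFN-γ, near the 10.3% of all genes called higher. They were YBX3 at 1.18 and ZNF473 at 1.07 on the log2 scale. At the unadjusted p, 6 passed as higher and 5 as lower, and 0 were called lower, where 17.2% of all genes were. SLBP, which binds the stem-loop, fell by 0.95 with IFN-γ and by 0.74 with AX-0085, short of 2-fold (edgeR adjusted p = 6.15e-08 and 1.55e-06). Both agents against untreated cells left 1 of the 15 called lower and 0 higher, beside 7.23% and 7.51% of all genes. The list is a broad one, and no role of its genes in histone mRNA was tested. With AX-0085 0 of the 15 were called by edgeR, although 1 had an unadjusted p under 0.05 as higher and 11 as lower. On addition of AX-0085 to IFN-γ 2 were called lower and 0 higher, beside 8.28% and 16.5% of all genes. YBX3 fell by 1.49 and ERI1, an exonuclease of histone mRNA decay, by 1.25. The median log2 changes of this list were 0.05, -0.42 and -0.35 under IFN-γ, AX-0085 and the addition of AX-0085.

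**Figure D5:**
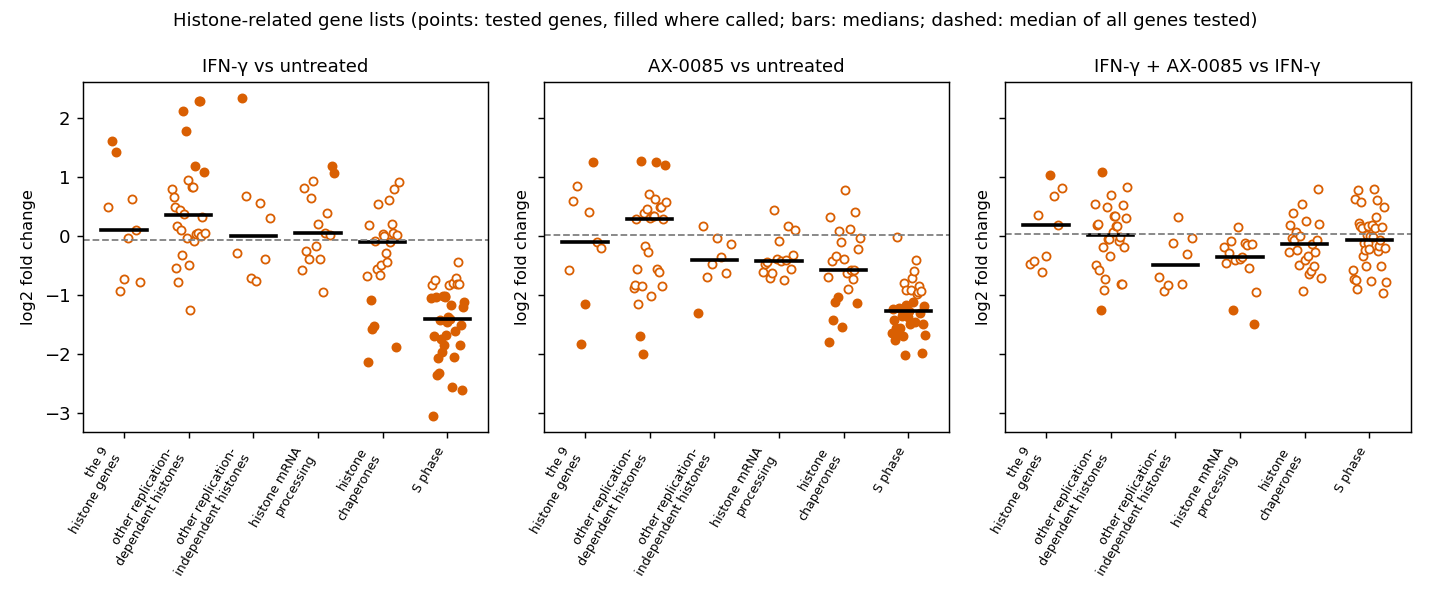
Log2 fold changes of the tested genes of each list in the 3 main comparisons; points are genes, filled where called, bars are list medians and the dashed line is the median of all genes tested. S phase genes lie below 0 under IFN-γ and with AX-0085 and around 0 on addition of AX-0085 to IFN-γ, while the 9 histone genes spread to both sides of 0 in all 3.

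Across the 8 libraries, which fall into 4 groups and share their scaling, genes outside the 9 were ranked by likeness of log2 CPM. The pattern of the clustered core genes was the mean of their log2 CPM, each gene first scaled to equal spread. H2BC4, the lowest of them, thus weighed as much as H2AC6. Most like this pattern were CPT1A (Pearson's r = 0.990), TRIM68 (0.980) and ZBTB38 (0.978). CPT1A ranged only from 61.6 to 95 CPM. Those most like H2AZ1 were SHCBP1 (0.996), PBK (0.995) and ARHGEF39 (0.994), and those most like H1-10 were UBL4A (0.977), GPX1 (0.977) and YDJC (0.976). SHCBP1 had 132 and 129 CPM in untreated cells, 41.8 and 43.5 under AX-0085, 60.8 and 64.2 under IFN-γ and 47.1 and 46.6 under both, in the group order of H2AZ1. Among the 9 genes, H2AZ1 and H2AX had an r of 0.965, H1-2 and H2AC6 one of 0.891, and H2BC21 and H2AX one of -0.956. H2BC4 and H2AC6, which share a promoter stretch, had an r of 0.452 over the same 8 libraries.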

How the data were processed

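Per the labels and the paper's methods, the authors made stranded mRNA libraries, trimmed the reads (Trim Galore 0.6.7), mapped them to GRCh38 (STAR 2.7.9a) and counted them per gene with featureCounts. The deposited values are raw counts, whole numbers per gene without normalization. The annotation release, strand setting and treatment of reads with several matches are not given in the sources used here. Genes were filtered (filterByExpr), scaled (TMM) and tested with the quasi-likelihood test of edgeR 4.0.16 (R 4.3.3). A single model held the 4 groups and 8 libraries, and 6 comparisons were read from it with Benjamini-Hochberg adjustment over 15066 genes. Called means an adjusted p under 0.05 and a change over 2-fold. Log2 values used a prior count of 0.125. Totals were 20672828 to 29978251 counts. Positions and exon lengths came from GENCODE 44 and promoters from RefSeq. The scripts were tested on simulated data.

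The members, lists, motifs and alternatives were chosen with earlier results of these data known. The text names all 9 genes, the 2 called genes of each list with the largest change in each main comparison (mean log2 CPM 2 or more), and the 3 genes most like each of 3 patterns. Not every gene selected this way is reported here. H2AZ2, SLBP and the antisense, overlapping, copy and near-copy genes were named after their values were seen. Alternatives were DESeq2 1.42.0, its size factors, library-size scaling, other filters, a fit limited to the groups compared, calls by adjusted p, glmTreat, a replicate block and leaving out each library.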

Additional observations from a re-analysis of the deposited data

Results flagged for a closer look

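For 3 of the 9 genes the change with AX-0085 in cells given IFN-γ differed from that in cells without it by more than 2-fold, by the interaction term of the edgeR model. H1-2 rose with AX-0085 alone and fell on its addition to IFN-γ, with an interaction of -1.01 on the log2 scale (edgeR adjusted p = 3.04e-05). H2BC5 had an interaction of 1.03 (edgeR adjusted p = 0.000626), with a log2 change of -0.21 with AX-0085 alone, which did not pass the test, and of 0.82 on its addition to IFN-γ. H2AX fell in both settings, by 1.83 and by 0.61, with an interaction of 1.22 (edgeR adjusted p = 5.73e-05). The 3 calls lay near 2-fold: without the first AX-0085 library H1-2 stood at -0.97 and H2BC5 at 0.97, without the first IFN-γ library H1-2 stood at -0.92 and H2BC5 at 1.00, just under the limit, and without the second untreated library H2BC5 stood at 1.00, also just under it, and H2AX at 0.98. Other settings also took calls away. H2BC5 stood at 0.998 in DESeq2 and with DESeq2's size factors in edgeR. H1-2 stood at -0.89 with library-size scaling and at -0.97 with a filter of at least 10 counts in every library. All genes with such a call made up 18.6% of those tested, so 3 of 9 is to be read beside that share. The interaction of H2AX was also not particular to it, since all 35 tested S phase genes had an interaction above 0. Of these 35, 21 were called above 0 and 0 below, beside 12.1% and 6.46% of all genes. With 2 libraries in a group, no library could be tested as standing apart from its group.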

How the results depend on the processing

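With the adjusted p alone, the number of the 9 genes called was 7 with IFN-γ, 8 with AX-0085 added to IFN-γ, 7 with AX-0085, 4 for both agents against AX-0085 and 6 in the interaction. With glmTreat against 1.5-fold it was 4 with IFN-γ and 1 for both agents against AX-0085. With DESeq2's size factors and with DESeq2 it was 0 for AX-0085 added to IFN-γ, where H2BC12 stood at 0.99 and 0.98. Leaving out each library in turn gave 0 to 1 calls there, 2 to 3 with IFN-γ, 4 to 6 for both agents against untreated cells and 1 to 3 in the interaction. The 1 call in the interaction came without the second untreated, the first AX-0085 or the first IFN-γ library.

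H1-10 lost the adjusted p of its changes in DESeq2 and without single libraries. Signs turned only among changes that had not passed the adjusted p. H2BC12 with IFN-γ was 0.019 with DESeq2's size factors, 0.0227 in DESeq2 and 0.0094 with only the groups compared, and leaving out libraries gave -0.14 to 0.14. H2BC4 with IFN-γ was -0.0073 with library-size scaling, and leaving out libraries gave -0.21 to 0.36 there, -0.20 to 0.0048 with AX-0085 and -0.063 to 0.54 with AX-0085 added to IFN-γ. H1-10 with both agents against untreated was -0.0025 without a filter, and leaving out libraries gave -0.21 to 0.30 there and -0.20 to 0.33 for its interaction. H2BC21 for both agents against AX-0085 ranged from -0.0495 to 0.20. Of 855 single-gene values, 817 kept direction and call, 17 turned, 18 lost and 3 gained the call. The linker to core ratio without H2AZ1 was 0.374 (untreated), 0.569 (AX-0085), 0.85 (IFN-γ) and 0.606 (both), per kb 0.167, 0.276, 0.456 and 0.33, and to the clustered core genes alone, added after seeing the data, 1.9, 1.01, 2.09 and 0.981. With the longest transcript as length, 2 genes changed place in untreated cells.

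The replicate numbers did not pair the libraries, with correlations of deviations from -0.12 to 0.102. With the number as a block the calls among the 9 genes stayed at 2, 1, 3, 0, 6 and 3 over the 6 comparisons, and 4098 of all genes were called with IFN-γ in place of 4137. With the untreated numbers swapped, chosen after seeing the data, 4130 were called with IFN-γ, 1813 with AX-0085 and 3737 with AX-0085 added to IFN-γ. Library-size scaling moved the median of all genes with IFN-γ from -0.06 to -0.18. Depth limits H2BC4, with 22 to 51 counts, most. The causes were not tested.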
